A study of Homo sapiens with 8 samples.

Results

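The Fc gamma receptor genes and their neighbour HSPA7 were followed through a drug-free culture series of MOLM-13, an established line of human acute myeloid leukemia cells. The set holds 8 of the 58735 gene IDs in the count files: FCGR1A, FCGR1B, FCGR2A, FCGR2B, FCGR2C, FCGR3A, the signalling subunit FCER1G and the heat shock pseudogene HSPA7. The set was chosen by the measured levels themselves, as counts per 1000000 (CPM), because FCGR2B and FCGR2C were lower with each further course in these same libraries. The members' levels are therefore a description and carry no test. All 8 lie on chromosome 1.

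The study concerns busulfan resistance, and its labels describe 8 samples of MOLM-13, each sequenced as bulk RNA. The 4 libraries analysed here are untreated parental cells (replicate 2) and cells kept as vehicle controls through 1, 3 or 5 courses with 1% DMSO, with 1 library for each. Busulfan, an alkylating drug, was given to the other arm at 25 to 200 µM for 6 h a course. The 3 libraries of that arm, and replicate 1 of the parental cells, are not used here. All groups are the same line with no engineered change, and the labels do not give the passage of the DMSO cultures, so DMSO, course number and time in culture cannot be told apart. No group has a replicate, and all DMSO libraries are set against the same parental library.

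Fc gamma receptors bind the constant part of IgG antibodies on myeloid and lymphoid cells. Activating receptors signal through paired tyrosines, the immunoreceptor tyrosine-based activation motif (ITAM), which FCGR2A and FCGR2C carry in their own tails and which FCGR1A and FCGR3A borrow from the FCER1G chain. FCGR2B carries an inhibitory motif (ITIM) with a single tyrosine instead, and recruits the phosphatase encoded by INPP5D. FCGR2C arose from an exchange between its neighbours, with an outer part like FCGR2B and a tail like FCGR2A, and it is not translated in many people. HSPA7 is a pseudogene copy of the stress-induced chaperone gene HSPA6, and each of the pair sits directly behind an FCGR2 gene.

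The tail sequences that set the inhibitory receptor apart from the activating ones are shown first, because the inhibitory and the activating copy had very different levels by the last course. They are coding stretches of GENCODE release 29 transcripts, 5′ to 3′, with the tyrosine codons of each motif in capitals.
FCGR2B inhibitory stretch, codons 284 to 301 of 310: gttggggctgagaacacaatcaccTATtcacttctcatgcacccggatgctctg
FCGR2A activating stretch, codons 285 to 308 of 316: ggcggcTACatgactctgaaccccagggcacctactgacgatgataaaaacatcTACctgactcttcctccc
FCGR2C activating stretch, codons 291 to 314 of 322: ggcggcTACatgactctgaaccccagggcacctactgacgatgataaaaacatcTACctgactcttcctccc
FCER1G activating stretch, codons 63 to 81 of 86: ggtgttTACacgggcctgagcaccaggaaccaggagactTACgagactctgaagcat
The FCGR2A and FCGR2C stretches differed at 0 bases, and 15 codons separate their tyrosines, against 10 codons in FCER1G. Over the coding sequence, FCGR2C and FCGR2B were identical at 99.6% of aligned bases in the outer and membrane part but at 59.8% in the tail. FCGR2C and FCGR2A were identical at 91.9% of aligned bases in the outer part and at 99.5% in the tail.

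This likeness bears on the counts, since a read that fits several places equally well is held out of every gene. Of the 100-base words in the annotated transcripts, 90.2% of those of FCGR2B, 72.5% of those of FCGR2C and 93.3% of those of FCGR2A occurred in no other gene. The share was 65.6% for HSPA7, which shares words with HSPA6, and 63.5% for FCGR1A and 72.5% for FCGR1B, which share words with each other and with FCGR1CP. No 100-base word of FCER1G occurred in another gene. With 50-base words the shares were 87.5% for FCGR2B, 55.1% for FCGR2C and 83.3% for FCGR2A. They were 43.7% for HSPA7, 44.6% for FCGR1A, 55.2% for FCGR1B and 99.5% for FCER1G. FCGR2C is the member with a near-identical partner on both sides, so its count and the split within the FCGR2 genes are uncertain. The annotated exons of FCGR2A and FCGR2C also overlap the same-strand transcript AL590385.2, over 3.78% and 7.88% of their bases. AL590385.2 itself had at most 1 count in a library.

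The depth was between 44795976 and 56825811 gene counts a library, highest in the parental one. Reads aligned to several places made up 13.9% of all reads in parental cells and 15.4%, 14.2% and 21.3% in courses 1, 3 and 5, so course 5 had the largest share of reads that no gene could receive. Its part in the members' levels was not tested. Of 10 markers of the line, 9 averaged 5 CPM or more over the 4 libraries. The 10 summed to 2161 CPM in parental cells and 2794, 2835 and 2153 CPM in courses 1, 3 and 5. By the 2-fold rule used below, 1 of the 9 was lower in course 3 and 1 in course 5, and 0 were higher. Over all genes, 2.34% were lower in course 3 and 4.92% in course 5. FLT3, the receptor kinase of myeloid progenitors, had 392 CPM in parental cells and 520, 617 and 539 CPM in courses 1, 3 and 5, with CPM taken after composition scaling. MPO, another marker of the list, had 551 CPM in parental cells and 932, 739 and 336 CPM in the courses. LYZ, lysozyme, lay between 650 and 886 CPM, while the granule gene AZU1 stayed at or below 0.219 CPM.

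FCGR2B, the inhibitory receptor, had 31.0 CPM in parental cells, 12.3 CPM after course 1, 0.756 CPM after course 3 and 0.154 CPM after course 5. These levels rest on 1832, 531, 38 and 7 counts. Each library was below the one before it by more than counting error. Against the parental library the log2 ratio was -1.33 in course 1 (95% counting interval -1.47 to -1.19), -5.36 in course 3 (-5.86 to -4.89) and -7.66 in course 5 (-8.97 to -6.61). The last of these is a level 202-fold lower. All such intervals cover counting error only, not variation between cultures. In bulk RNA, fewer cells with the transcript and less transcript per cell cannot be told apart.

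FCGR2C had 48.2 CPM in parental cells and 12.2, 1.15 and 0.439 CPM in courses 1, 3 and 5, from 2854, 527, 58 and 20 counts. Its log2 ratios to the parental library were -1.98, -5.38 and -6.78 in the same order. The count of FCGR2C over that of FCGR2B was 1.56 in parental cells (95% counting interval 1.47 to 1.65), 0.992 in course 1 (0.878 to 1.12), 1.53 in course 3 (0.997 to 2.36) and 2.86 in course 5 (1.16 to 8.00). The pair was thus lower together, but not in a fixed proportion, and course 1 was the library whose ratio lay below the parental one beyond counting error. Summed over both genes, the log2 ratios were -1.69, -5.37 and -7.06.

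HSPA7, the pseudogene, starts 628 bases behind the end of FCGR2C on the same strand in GENCODE release 29. It had 63.2 CPM in parental cells, 20.0 CPM in course 1, 1.79 CPM in course 3 and 0.395 CPM in course 5, from 3737, 860, 90 and 18 counts. The log2 ratios were -1.66, -5.14 and -7.32, close to those of FCGR2B and FCGR2C at each course. HSPA7 counts over FCGR2C counts were 1.31 in parental cells (1.25 to 1.38), 1.63 in course 1 (1.46 to 1.82), 1.55 in course 3 (1.10 to 2.20) and 0.900 in course 5 (0.449 to 1.79). Whether the HSPA7 reads come from its own transcript or from read-through of FCGR2C was not tested.

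**Figure D1:**
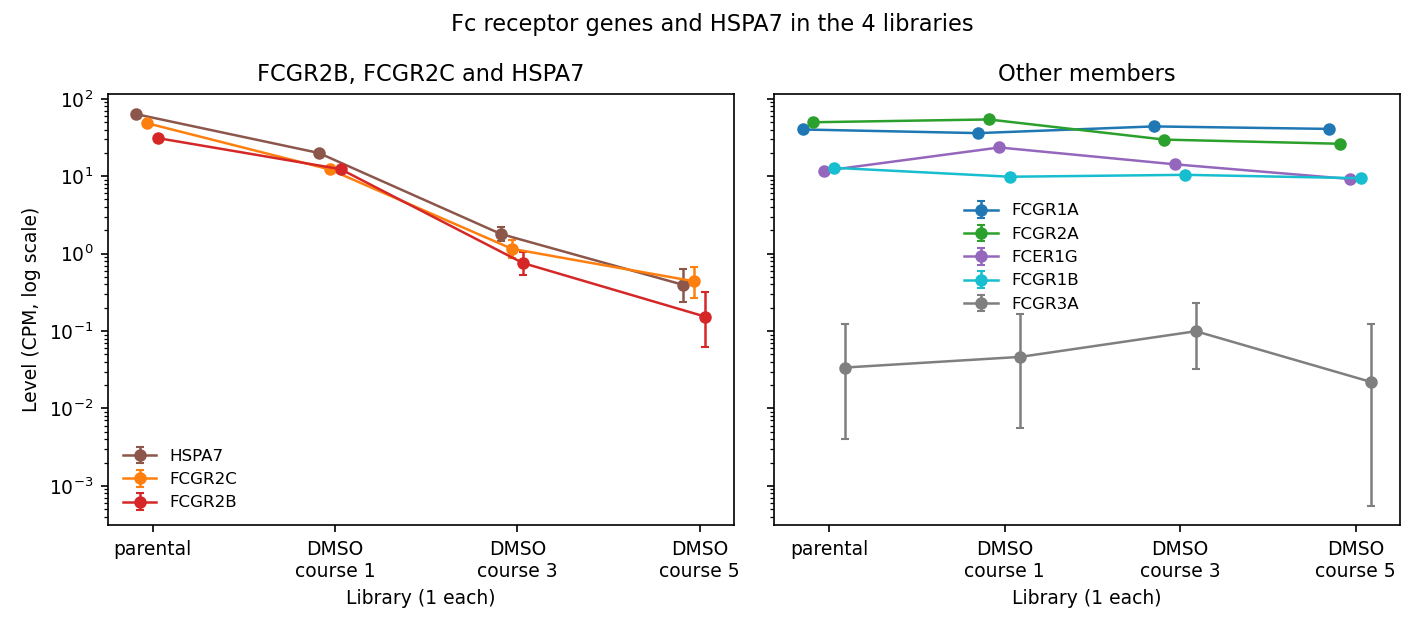
Level of each member in CPM (log axis) in the parental library and in DMSO courses 1, 3 and 5, with 1 library each and bars for the 95% counting interval. FCGR2B, FCGR2C and HSPA7 are at 31.0 to 63.2 CPM in parental cells and at 0.154 to 0.439 CPM in course 5, while FCGR1A, FCGR1B, FCGR2A and FCER1G stay above 9 CPM in every library.

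FCGR2A, the activating receptor with the shared tail, did not follow that course. It had 49.7 CPM in parental cells and 54.0, 29.7 and 26.2 CPM in courses 1, 3 and 5, from 2942, 2328, 1491 and 1195 counts. Its log2 ratio was 0.12 in course 1 (0.04 to 0.20), -0.74 in course 3 (-0.84 to -0.65) and -0.92 in course 5 (-1.02 to -0.83). With library sizes taken as total counts the course 1 ratio was 0.01, so the small excess there depends on the scaling. The difference lies between courses 1 and 3, where the log2 step was -0.86, against -0.18 between courses 3 and 5.

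The make-up of the FCGR2 family therefore differed between libraries. FCGR2A held 38.6% of the counts of the 3 FCGR2 genes in parental cells (exact binomial 95% interval 37.5 to 39.7%), 68.8% in course 1, 94.0% in course 3 and 97.8% in course 5 (96.8 to 98.5%). The share of FCGR2B, the inhibitory member, was 24.0% in parental cells, 15.7% in course 1, 2.39% in course 3 and 0.573% in course 5. The summed level of the 3 genes was 128.9 CPM in parental cells and 78.6, 31.6 and 26.8 CPM in courses 1, 3 and 5, with log2 ratios of -0.71, -2.03 and -2.27. These shares count reads and are not corrected for gene length or for reads the genes share.

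**Figure D2:**
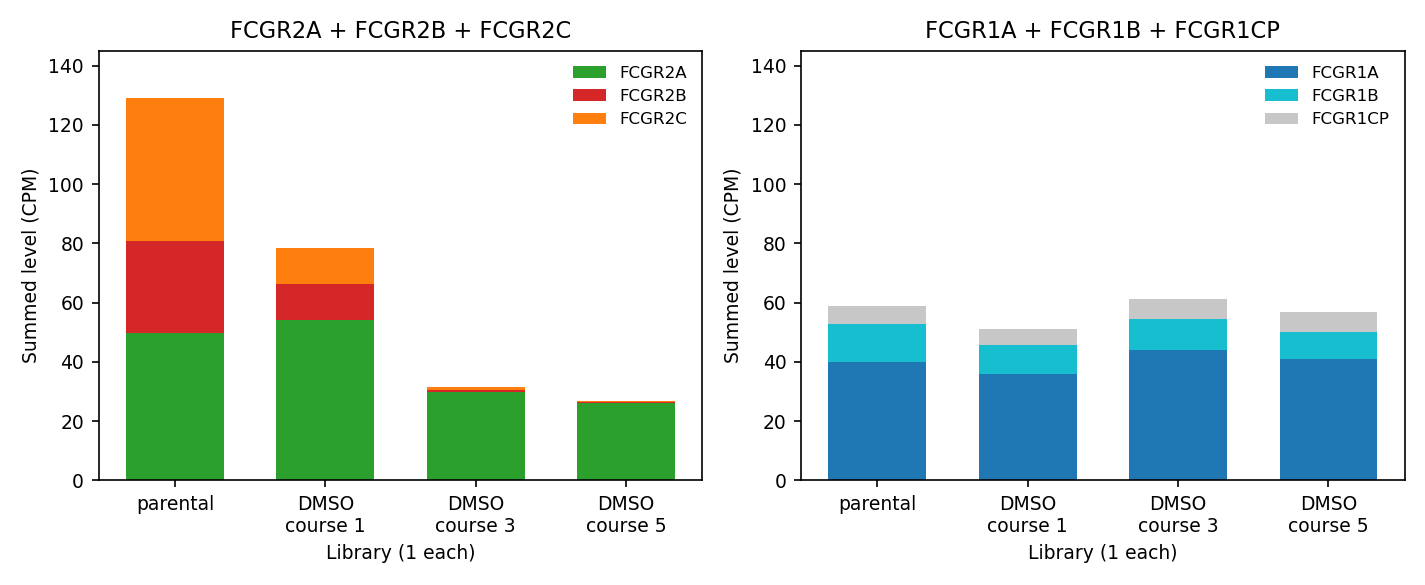
Summed level in CPM of the FCGR2 genes (left) and of the FCGR1 genes (right) in the parental library and DMSO courses 1, 3 and 5, with each bar split by the counts of its genes. The FCGR2 bar goes down to 26.8 CPM in course 5, of which FCGR2A holds 97.8%, while the FCGR1 bar stays between 51.1 and 61.3 CPM.

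FCGR1A, the high-affinity IgG receptor, was close to level. It had 40.1 CPM in parental cells and 36.0, 43.9 and 40.8 CPM in courses 1, 3 and 5, from 2373, 1551, 2207 and 1859 counts. Its log2 ratios were -0.16, 0.13 and 0.02, and the last became -0.02 with total counts. FCGR1B, a shortened relative of FCGR1A, had 12.8 CPM in parental cells and 9.84, 10.4 and 9.41 CPM in courses 1, 3 and 5. Its log2 ratios lay between -0.45 and -0.30, and all 3 counting intervals were below 0. These genes share much sequence, and the sum of FCGR1A, FCGR1B and the pseudogene FCGR1CP had log2 ratios of -0.20, 0.06 and -0.05.

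FCER1G, the ITAM chain that FCGR1A needs at the cell surface, had its highest level in course 1. It had 11.7 CPM in parental cells and 23.5, 14.2 and 9.19 CPM in courses 1, 3 and 5, from 694, 1012, 715 and 419 counts. The log2 ratio was 1.00 in course 1 (0.86 to 1.14), 0.28 in course 3 (0.13 to 0.43) and -0.35 in course 5 (-0.53 to -0.17). Its course 1 level was 2.00-fold the parental one, at the edge of the 2-fold rule used below, and the log2 ratio was 0.89 with total counts, under that rule. FCGR3A, the low-affinity receptor of NK cells and macrophages, had 2, 2, 5 and 1 counts, and its neutrophil copy FCGR3B had 1, 2, 0 and 0 counts. Neither was above 0.0995 CPM in any library, so no ratio is drawn from them, and a count of 0 allows up to 0.0597 CPM in course 3 and 0.0658 CPM in course 5.

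Set per kilobase of annotated exon, the order of the members' levels turned over. The length is the union of exons over all annotated transcripts, such as 6651 bases for FCGR2B and 964 for FCER1G. It may differ from that of the expressed transcript, and reads held out because genes share sequence are not corrected for. The order within a library is therefore uncertain beyond counting error. In parental cells HSPA7 led with 32.8 CPM per kb, followed by FCGR2C with 13.5, FCGR1A with 13.4, FCER1G with 12.2, FCGR2A with 9.36, FCGR2B with 4.65 and FCGR1B with 3.79 CPM per kb. The counting intervals of FCGR2C, FCGR1A and FCER1G overlapped, so their order among themselves is not settled. In course 5 FCGR1A led with 13.6 CPM per kb, before FCER1G with 9.54, FCGR2A with 4.93, FCGR1B with 2.78, HSPA7 with 0.205, FCGR2C with 0.123 and FCGR2B with 0.0231 CPM per kb. The intervals of HSPA7 and FCGR2C overlapped there too. HSPA7, first in parental cells, was behind all but FCGR2C, FCGR2B and FCGR3A after course 5. FCGR3A was last in every library.

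A gene was counted as apart from the parental library where it averaged 5 CPM or more over the 4 libraries, differed 2-fold or more and had a counting interval without a ratio of 1. All members but FCGR3A reached that mean, as did 10710 genes in all. In course 1, FCGR2B, FCGR2C and HSPA7 were apart and lower, where 4.19% of all genes were, and FCER1G was apart and higher, where 3.7% of all genes were. In course 3 the same 3 members were lower, against 2.34% of all genes lower and 2.23% higher. In course 5 they were lower again, against 4.92% of all genes lower and 2.96% higher. Since the members were picked for this fall, these counts describe the set and support nothing. In course 5 only 3 genes had a lower ratio than FCGR2B, 4 a lower one than HSPA7 and 6 a lower one than FCGR2C, whereas 597 had a lower one than FCGR2A.

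From course 1 to course 3, FCGR2B, FCGR2C and HSPA7 had log2 steps of -4.03, -3.41 and -3.48, against 4.82% of all genes at least 2-fold lower and 3.9% higher. From course 3 to course 5 the steps were -2.30, -1.40 and -2.18, where 0.915% of all genes were at least 2-fold lower and 0.0747% higher. The step before course 3 was thus the largest for each of these genes, but it spans 2 courses, as does the step after it. From the parental library to course 1, a span of 1 course, the steps were -1.33, -1.98 and -1.66. The sizes of the steps are therefore not rates per course. These 3 members were below the preceding library beyond counting error at every step, which 2.46% of the 10710 genes were, or 6.26% without regard to counting error. No member was above the preceding library at every step, as 3.99% of genes were beyond counting error and 9.41% without regard to it. The median over all genes was a log2 ratio of 0.02, 0.01 and 0.03 in courses 1, 3 and 5.

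**Figure D3:**
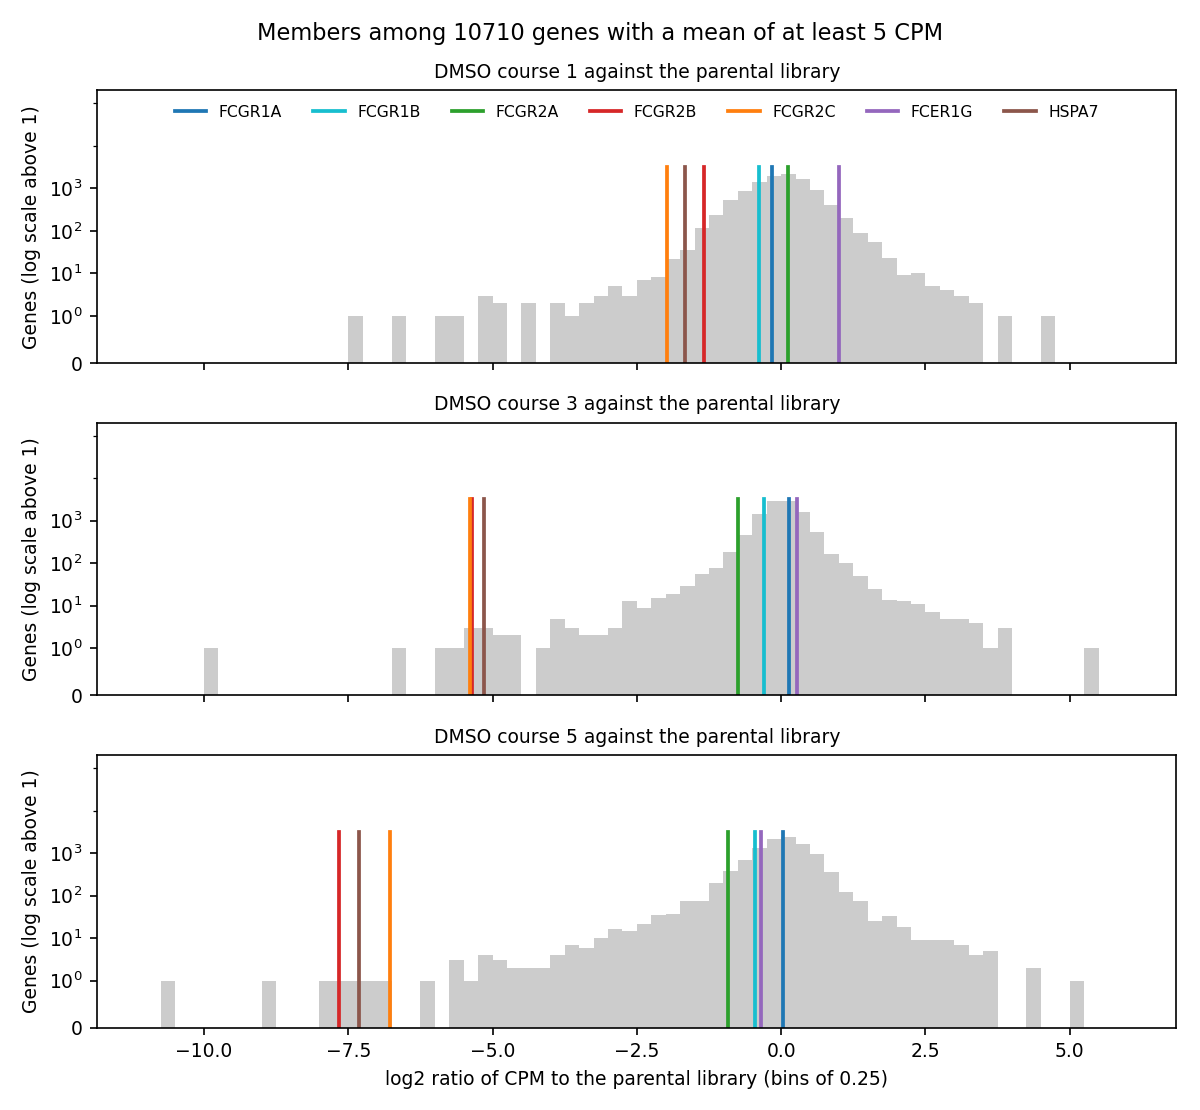
Number of genes (vertical axis, log scale above 1) by log2 ratio to the parental library in bins of 0.25, for the 10710 genes that averaged 5 CPM or more, in DMSO courses 1, 3 and 5, with coloured lines for 7 members. FCGR2B, FCGR2C and HSPA7 lie at the lower edge of the main body in course 1 and far out in the lower tail in courses 3 and 5, while FCGR1A and FCGR1B stay within the main body.

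A slope over 0, 1, 3 and 5 courses was fitted to 18612 genes with edgeR's quasi-likelihood test. At an adjusted p under 0.05 it called 0% of genes higher and 0% lower, members included, although 2940 genes had an unadjusted p under 0.05. The test of the 3 DMSO libraries together against the parental one also called 0 genes, with 1045 at an unadjusted p under 0.05. By DESeq2 the counts were 880 and 211 genes, and by limma-voom both were 0. Leaving out 1 library at a time moved the slope's count to between 5 and 4094 genes, 5 without course 5, 32 without course 3, 2795 without course 1 and 4094 without the parental library. The fitted slopes, given as a description, were -1.64 log2 units a course for FCGR2B, -1.52 for HSPA7, -1.41 for FCGR2C, -0.22 for FCGR2A, -0.16 for FCER1G, -0.07 for FCGR1B and 0.02 for FCGR1A.

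Position on the chromosome set FCGR2B, FCGR2C and HSPA7 beside genes with other patterns. By GENCODE release 29, FCGR2C starts 81.8 kb and FCGR2A 157.7 kb upstream of FCGR2B, and FCER1G lies 447.9 kb upstream. Of 30 genes annotated within 200 kb of the FCGR2 and FCGR3 genes, 11 had a mean of at least 1 CPM. HSPA6, the intact stress-induced chaperone gene, starts 526 bases behind the end of FCGR2A, as HSPA7 does behind FCGR2C. It had 1.40 CPM in parental cells and 2.20, 0.737 and 0.724 CPM in courses 1, 3 and 5, with log2 ratios of 0.65, -0.93 and -0.95. Those ratios had the signs of FCGR2A's at each course, and HSPA6 counts over FCGR2A counts stayed between 0.0248 and 0.0408.

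Beyond FCGR2B, FCRLB, an Fc receptor-like gene 58.4 kb downstream, had 4.85 CPM in parental cells and 4.90, 1.49 and 1.10 CPM in courses 1, 3 and 5. It was level with the parental library in course 1 and had log2 ratios of -1.70 and -2.14 in courses 3 and 5. DUSP12, a phosphatase gene 86.6 kb downstream, had 23.4 CPM in parental cells and 15.2, 26.3 and 29.8 CPM in the courses. ATF6, a sensor of endoplasmic reticulum stress 103.1 kb downstream, had 73.2 CPM in parental cells and 49.96, 95.3 and 125.1 CPM in the courses. Both were thus lower in course 1 and higher in course 5. At the far upstream end SDHC, a subunit of succinate dehydrogenase, had log2 ratios of 0.33, 0.23 and 0.16. The long noncoding RNA AL592295.4 had 0.50, 0.44 and 0.61. The most negative ratios of the region in course 3 and course 5 were those of FCGR2C, HSPA7 and FCGR2B.

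**Figure D4:**
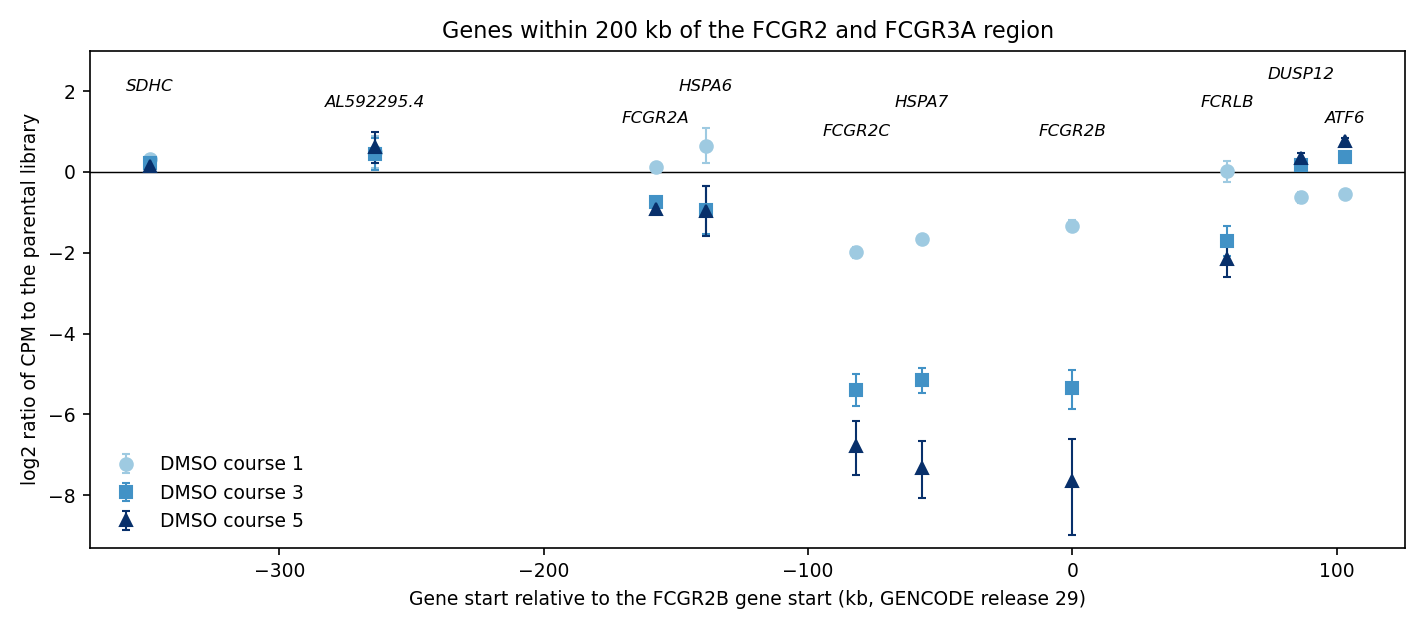
Log2 ratio of CPM to the parental library (vertical axis) for the named genes of the region that averaged 1 CPM or more, by distance of the gene start from that of FCGR2B in kb, in DMSO courses 1, 3 and 5, with bars for the 95% counting interval. FCGR2C, HSPA7 and FCGR2B reach -6.78 to -7.66 in course 5, while the flanking genes lie between -2.14 and 0.77.

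The promoters of FCGR2A and of the downstream start site of FCGR2B are shown because these neighbours had such different levels. They run from 250 bases before to 50 bases after the RefSeq start (GRCh38.p14, plus strand), and 5 of the 8 members have an entry in the table. The letters GAGGAA (the PU.1 core), TTCNNNGAA (a gamma-interferon-activated site), AGATAA (a site of GATA factors) and the heat shock element were searched on both strands. Capitals mark every match, and no matches overlapped.
FCGR2A, chr1:161505207-161505506: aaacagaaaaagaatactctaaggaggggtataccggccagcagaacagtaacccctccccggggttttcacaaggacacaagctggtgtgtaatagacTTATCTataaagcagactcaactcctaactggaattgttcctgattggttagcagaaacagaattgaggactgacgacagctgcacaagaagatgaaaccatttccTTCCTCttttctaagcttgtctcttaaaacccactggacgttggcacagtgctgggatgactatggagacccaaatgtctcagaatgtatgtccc
FCGR2B, chr1:161662893-161663192: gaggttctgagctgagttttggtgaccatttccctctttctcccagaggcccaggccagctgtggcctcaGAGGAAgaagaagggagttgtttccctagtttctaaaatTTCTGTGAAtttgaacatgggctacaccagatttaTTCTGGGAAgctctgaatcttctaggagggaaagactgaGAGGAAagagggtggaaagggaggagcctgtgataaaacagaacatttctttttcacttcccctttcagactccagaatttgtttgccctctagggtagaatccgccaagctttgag
FCGR2A had the PU.1 core 45 bases and the GATA letters 151 bases before the start. FCGR2B had the PU.1 core 180 and 67 bases and the gamma-activated site 141 and 106 bases before this start, and 0 matches at its upstream start. FCGR1A had a PU.1 core 46 bases and a gamma-activated site 93 bases before its start, and FCER1G had none of the 4 motifs. FCGR3A, with 5 starts in the table, had a heat shock element 62 bases before one start and a PU.1 core 6 bases after it, and the GATA letters 197 bases before another. HSPA6 had a heat shock element 74 bases before its start. Of all 35116 promoters of this length, 27.9% held GAGGAA, 7.7% TTCNNNGAA, 10.3% AGATAA and 0.5% the heat shock element, so the first of these is common. A match is a run of letters and not a shown binding site.

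Factors known to act on Fc receptor genes formed a list of 17 genes, of which 0 were called by either edgeR fit, as in every list below. Since each fit called 0 of all 18612 genes, these counts of 0 say nothing about a list. In course 5, 2 of the 14 that averaged 5 CPM or more were apart and higher and 0 lower. Over all genes, 2.96% were apart and higher in that library and 4.92% lower. SPI1, which encodes PU.1, had 240.8 CPM in parental cells and 350, 262 and 252 CPM in courses 1, 3 and 5. CEBPB, a myeloid transcription factor, had 12.03 CPM in parental cells and 34.2, 45.8 and 54.7 CPM in the courses. GATA2, a factor of progenitors and mast cells, had 88.1 CPM in parental cells and 281, 370 and 339 CPM in the courses. CEBPB and GATA2 were apart and higher in all 3 courses, and SPI1 was within 2-fold of the parental library in each. KLF4 had log2 ratios of -0.19, 0.99 and 0.61, and CEBPE had 1.26, 0.14 and -0.16. The list's median log2 ratio in course 5 was 0.37, against 0.03 over all genes.

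Of 19 other Fc receptor genes, 5 had a mean of at least 5 CPM. FCER2, the low-affinity IgE receptor CD23, had 20.3 CPM in parental cells and 47.4, 61.1 and 50.4 CPM in courses 1, 3 and 5, apart and higher in each, so it ran opposite to FCGR2B. FCGRT, the receptor that recycles IgG inside cells, had 192.5 CPM in parental cells and 295, 157 and 118 CPM in the courses. FCMR, the IgM receptor, had log2 ratios of 0.60, -0.24 and -0.74. Both FCGRT and FCMR were thus highest in course 1, as FCER1G was. The IgE receptor subunits FCER1A and MS4A2, which pair with FCER1G in mast cells, stayed at or below 0.132 and 0.537 CPM.

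Among 28 ITAM adaptors and their partners, 6 had a mean of at least 5 CPM. In course 5, 0 of these were apart and higher and 2 lower, against 2.96% and 4.92% of all genes. TYROBP, an adaptor with an ITAM, had 138 CPM in parental cells and 222, 134 and 119 CPM in the courses, within 2-fold in each. SIGLEC14 had log2 ratios of 1.08, 0.14 and -0.06, apart and higher in course 1. HCST, listed as a partner (DAP10), had 11.998 CPM in parental cells and 14.5, 6.85 and 4.24 CPM in the courses. PILRB, an activating receptor, had log2 ratios of 0.04, -0.18 and -1.01. The myeloid receptors TREM1 and TREM2 had ratios of -3.98 and -1.78 in course 5, at a mean under 5 CPM. The list's median in course 5 was -0.79.

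The kinases and linkers downstream of Fc receptors were mostly within 2-fold. Of 27 at 5 CPM or more, 2 were apart and higher and 1 lower in course 5, against 2.96% and 4.92% of all genes. The list's median was 0.05. SYK, the kinase that docks on ITAM tyrosines, had 186 CPM in parental cells and 161, 207 and 208 CPM in the courses. FYN, a kinase of the SRC family, had 16.7 CPM in parental cells and 14.97, 31.6 and 66.9 CPM in the courses, and was apart and higher in course 5. FGR, another SRC-family kinase, had 8.77 CPM in parental cells and 22.8, 5.04 and 3.12 CPM in the courses, apart and higher in course 1 and lower in course 5. The RAS activator SOS1 had log2 ratios of 0.62, 1.36 and 1.30, and the adaptor LAT had 0.69, -0.80 and -1.73.

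Inhibitory receptors and phosphatases, the group to which FCGR2B belongs by function, numbered 26, and of 16 at 5 CPM or more 1 was apart and higher and 3 lower in course 5. INPP5D, the phosphatase that FCGR2B recruits, had 453 CPM in parental cells and 549, 379 and 355 CPM in the courses. SIGLEC7, a sialic acid receptor with an ITIM, had 18.1 CPM in parental cells and 11.2, 2.79 and 2.19 CPM in the courses, with log2 ratios of -0.69, -2.70 and -3.04. CD300A, another ITIM receptor, had 45.7 CPM in parental cells and 108.5, 23.9 and 15.4 CPM in the courses. CD72 had log2 ratios of 0.84, -0.78 and -2.16, and SIGLEC9 had -0.27, -0.87 and -2.14. Other ITIM receptors went the other way: LAIR1 had 0.89, 1.12 and 1.23, apart and higher in courses 3 and 5, and PECAM1 had 0.44, 0.52 and 0.52. The list thus held ratios of both signs, its median in course 5 was -0.14, and 4.92% of all genes were apart and lower in that library and 2.96% higher.

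Genes of phagocytosis and the oxidase, which Fc receptors drive, numbered 25. Of 21 at 5 CPM or more, 1 was apart and higher and 3 lower in course 5, against 2.96% and 4.92% of all genes. The oxidase subunit NCF1 had 42.5 CPM in parental cells and 80.6, 17.4 and 14.4 CPM in the courses, with log2 ratios of 0.92, -1.29 and -1.56. GSN, the actin-severing gelsolin, had ratios of -0.47, -1.38 and -1.66, while MYO10, a motor of filopodia, had 1.77, 2.24 and 2.22. The other phagocytic receptors were 17, with 7 at 5 CPM or more and 1 of them, the integrin ITGAX, apart and lower in course 5. ITGAX had 292 CPM in parental cells and 485, 164 and 108.4 CPM in the courses. The scavenger receptor CD36, the complement receptor CR1 and the kinase TYRO3 had course 5 log2 ratios of -3.68, -1.36 and 1.67 at means under 5 CPM.

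The interferon gamma list was included because that cytokine induces FCGR1A. Of its 23 genes, 6 had 0 counts in every library, HLA-DRA, TAP1, PSMB8 and PSMB9 among them, and why was not tested. The 12 with a mean of at least 5 CPM held 0 apart and higher and 4 lower in course 5. Over all genes, 2.96% were apart and higher in that library and 4.92% lower. CIITA, the regulator of MHC class II, had 10.5 CPM in parental cells and 26.4, 5.35 and 2.94 CPM in the courses. The adhesion gene ICAM1 had log2 ratios of 0.30, -1.40 and -1.74, and the low-level GTPase genes GBP4 and GBP5 had -3.71 and -5.14 in course 5. FCGR1A, at 0.02 in that library, did not share these ratios. The list's median was -0.06.

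The HSP70 list set HSPA7 against its relatives, except HSPA1A, HSPA1B and HSPA1L, which had 0 counts in every library. Why those genes had no counts was not tested, and HSPA7 could not be compared with them. Of 11 at 5 CPM or more, 0 were apart in course 5, against 2.96% of all genes higher and 4.92% lower. HSPA8, the constitutive cytosolic HSP70, had 630 CPM in parental cells and 366, 327 and 345 CPM in the courses. The mitochondrial HSPA9 had log2 ratios of -0.83, -0.01 and 0.42, and HSPA13 had -0.60, 0.58 and 0.92. None of these was near the -7.32 of HSPA7. HSPA7 made up 97.8% of the summed counts of HSPA6 and HSPA7 in parental cells, 90.1% in course 1, 70.9% in course 3 and 35.3% in course 5.

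**Figure D5:**
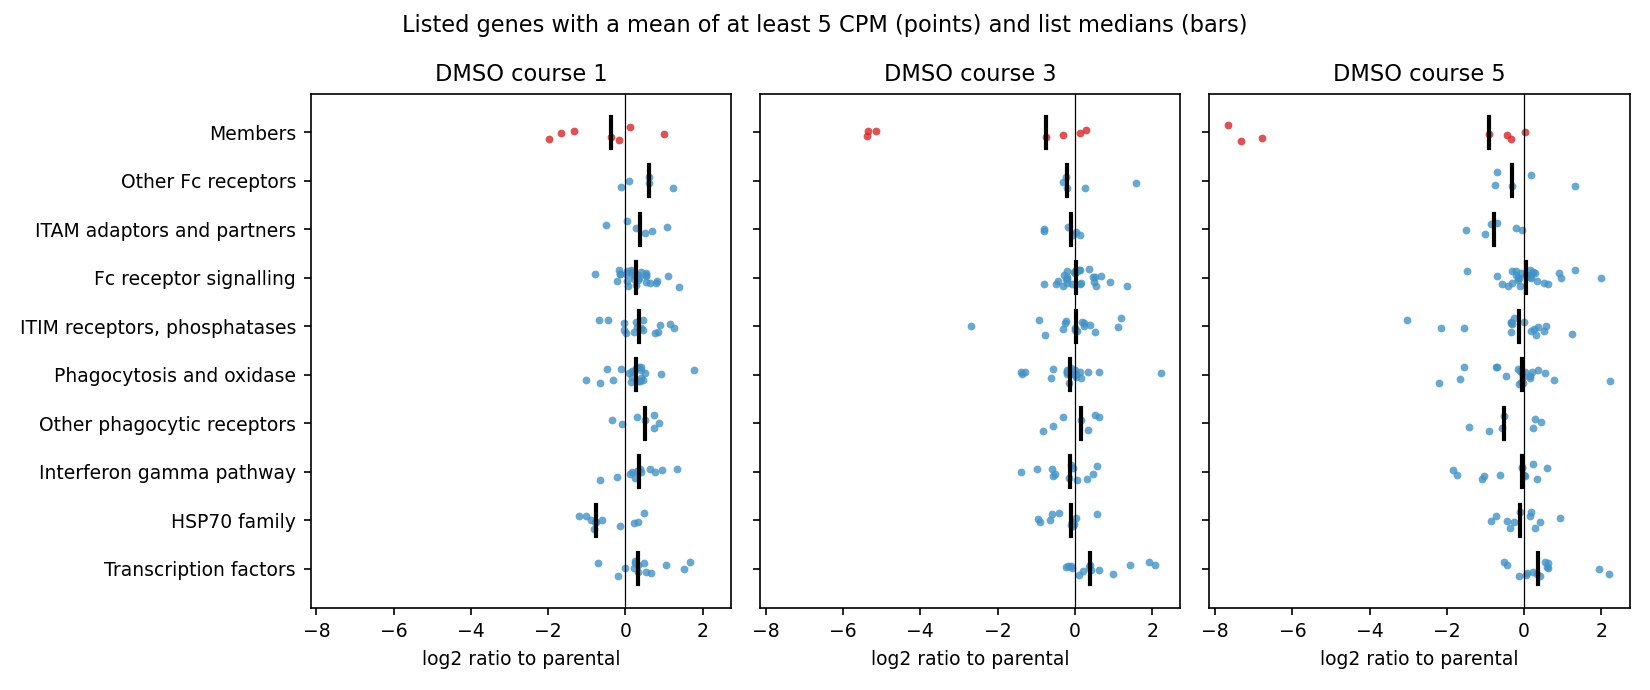
Log2 ratio to the parental library (horizontal axis, same scale in each panel) of listed genes that averaged 5 CPM or more, in DMSO courses 1, 3 and 5, with a point for each gene and a bar for the list's median. The members FCGR2B, FCGR2C and HSPA7 lie beyond -5 in courses 3 and 5, and no plotted gene of the other lists reaches that value.

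FCGR2B is also known from B cells and mature monocytes, so markers of such cells are given beside it. The 9 B cell markers summed to 3.68 CPM in parental cells and 4.29, 1.49 and 1.23 CPM in courses 1, 3 and 5, with 0 of 9 at a mean of 5 CPM. MS4A1 (CD20) had 0 counts in every library and PAX5 at most 1 count, so the defining markers were at or near 0. The 10 mature monocyte markers summed to 142, 165, 165 and 148 CPM in the same order. In course 5, 1 was apart and higher (VCAN, at a log2 ratio of 3.72) and 2 lower (CSF1R and CX3CR1). Over all genes, 2.96% were apart and higher in that library and 4.92% lower. CX3CR1, a chemokine receptor of nonclassical monocytes, had 13.3 CPM in parental cells and 4.02, 1.71 and 1.23 CPM in the courses. CD14 had 0.997 CPM in parental cells and 0.302, 0.318 and 0.549 CPM in the courses, from 59, 13, 16 and 25 counts. S100A9, a calcium-binding protein gene of monocytes and neutrophils, had 3.26 CPM in parental cells and 8.47, 0.677 and 0.263 CPM in the courses, from 193, 365, 34 and 12 counts. Its partner S100A8 had 77, 60, 14 and 4 counts in the same order. Both were thus low in courses 3 and 5 but not in course 1. There FCGR2B, CX3CR1 and CD14 were already lower, and CSF1R was not. CCR2, the largest part of the sum, lay between 69.9 and 91.6 CPM. The part of these genes in the FCGR2B levels was not tested.

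The 8 mast cell and basophil markers, which bear on FCER1G, summed to 100.8 CPM in parental cells and 332, 473 and 429 CPM in courses 1, 3 and 5. GATA2 and the tryptase gene TPSB2 made up most of that sum, and CPA3 and CMA1 had 0 counts in every library. The receptor gene KIT went the other way, with 33, 6, 4 and 2 counts in the same order. ENPP3 had 6, 15, 45 and 33 counts, and HDC had 16, 30, 48 and 16. The neutrophil markers summed to 615, 948, 602 and 503 CPM in the same order, nearly all from CSF3R, with CEACAM8 and MMP8 at 0 counts throughout. That order of levels, with course 1 highest and course 5 lowest, is also the order seen for FCER1G apart from its course 3 level. Their part in the FCER1G levels was not tested. T cell markers summed to between 52.6 and 81.5 CPM, almost all TRAC, with CD2 and CD5 at 0 counts. CD3D, a T cell receptor subunit, had 4.11 CPM in parental cells and 0.557, 0.0597 and 0.0878 CPM in the courses, from 243, 24, 3 and 4 counts. NK cell markers summed to between 165 and 280 CPM, mostly NCAM1 and NKG7. The erythroid sum was 30.2 to 61.3 CPM, nearly all EPOR, with ALAS2, AHSP and HBA2 at 0 counts, and the megakaryocyte sum 2.74 to 10.4 CPM, with PF4 and PPBP at 0 counts.

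Genes with a pattern most like that of FCGR2B were ranked by the root mean square difference of their 3 log2 ratios to the parental library, over 4 libraries and 9735 named protein-coding genes that averaged 5 CPM or more. For these ratios 2 counts were added to each gene in each library. HSPA7 and FCGR2C, from a set picked for this fall, stood at 0.229 and 0.532, nearer than any ranked gene outside the set, and FCGR2A at 4.59. Outside it SPP1, which encodes osteopontin, was nearest at 0.757, with 975, 253, 15 and 0 counts in the parental library and courses 1, 3 and 5. CAMKV, a kinase-like protein gene, followed at 1.155 with 1148, 86, 27 and 6 counts. LSP1, a leukocyte actin-binding protein gene, at 1.36, the adenylyl cyclase gene ADCY6 at 1.68 and the interleukin receptor gene IL2RG at 1.75 came next. LSP1 had 114.3 CPM in parental cells and 85.6, 8.32 and 2.13 CPM in the courses, so it was closer to the parental level in course 1 than FCGR2B was.

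For FCER1G, by the same measure, the nearest genes were ATG16L2 at 0.046, NMUR1 at 0.071, FSTL3 at 0.077, C16orf74 at 0.079 and DGKA at 0.093. ATG16L2, a relative of an autophagy gene, had 302 CPM in parental cells and 612, 348 and 242 CPM in courses 1, 3 and 5. The lipid kinase gene DGKA had 42.6 CPM in parental cells and 88.8, 49.0 and 36.5 CPM in the courses. These distances cannot be set against those from FCGR2B, which had few genes at ratios as low as its own. In course 5, 3 genes had a lower ratio than FCGR2B and 2304 a lower one than FCER1G. Over 4 libraries such likeness is a description of these cultures only.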

How the data were processed

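The authors deposited raw read counts per Ensembl gene ID for each library, with summary rows that were left out here (24.95% of reads in the parental library, 27.14%, 24.57% and 29.81% in DMSO courses 1, 3 and 5). Per the submitters' processing notes, TopHat2 2.0.11 and HTSeq 0.6p1 were run, FastQC 0.11.5 is listed beside them, and the genome is hg19. All 58735 IDs matched GENCODE release 29, a GRCh38 annotation, so it is unsettled on which build reads were counted, and distances and sequences come from the annotation, not from the counts. CPM used TMM-scaled library sizes in edgeR 4.0.16 (R 4.3.3). Tests used edgeR's quasi-likelihood fit on 18612 genes kept by filterByExpr (minimum count 10, total 15), with 2 residual degrees of freedom and Benjamini-Hochberg adjustment; DESeq2 1.42.0 and limma 3.58.1 were alternatives. Nothing says that the libraries are replicate cultures, so p-values measure only the spread between them. Ratios of single libraries carry exact binomial 95% intervals (SciPy 1.17.1), and for the ratio itself a count of 0 is set to 3 counts. Functions were tested on simulated data. The members, the 18 other lists and the rules were chosen with earlier results of these data known. Named were all members, up to 4 genes a list with the largest slopes and a mean of at least 1 CPM, neighbours at 1 CPM or more and the 5 genes most like FCGR2B and FCER1G. SPI1, SYK, INPP5D, LYZ, AZU1, CD14, CCR2, S100A8, LAIR1, PECAM1, FCER1A and MS4A2, and marker genes at 0 or near it, were named beside that rule for their role, after their values were seen. TYROBP, SIGLEC14, KIT, ENPP3, HDC, HSPA1A, HSPA1B, HSPA1L, HLA-DRA, TAP1, PSMB8 and PSMB9 were also named beside the rule, after their values were seen. Some genes that the rule selects in the marker lists are given only within the lists' sums. A few listed or neighbouring genes are left unreported here.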

Additional observations from a re-analysis of the deposited data

Results flagged for a closer look

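Each of 2 members lay on opposite sides of the parental library in early and late courses. FCGR2A had a log2 ratio of 0.12 in course 1 and -0.92 in course 5, and FCER1G had 1.00 in course 1 and -0.35 in course 5. Each value comes from 1 library a course against the same parental library, and the difference between courses was not tested.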

How the results depend on the processing

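No paired analysis was possible because each group has 1 library with a file. With no filter on low counts the slope called 132 genes and the pooled test 13. With DESeq2's Wald test they called 880 and 211. Leaving out 1 library gave 5 to 4094 genes for the slope and 25 to 1578 for the pooled test. At a mean of at least 1 CPM, 656 genes were apart and higher and 774 lower in course 1, 484 and 561 in course 3, and 576 and 995 in course 5. At 10 CPM, 155 were lower in course 3. With total counts in place of TMM the summed FCGR2 log2 ratio in course 1 was -0.83 and that of FCGR2B with FCGR2C was -1.80. Without FCGR2A the summed ratios were -1.69, -5.37 and -7.06 in courses 1, 3 and 5. The cause of these moves was not tested. DESeq2 size factors shifted 28 ratios of single members and of the summed FCGR2 genes by -0.0019 to 0.0115 and kept 28 signs, and total counts shifted them by -0.1144 to -0.0432 and kept 27, the exception being FCGR1A in course 5 (-0.02). Counts of 7 to 20 in course 5 leave the late ratios of FCGR2B, FCGR2C and HSPA7 wide.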
